A study of Mus musculus with 2 samples.

Results

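The TGF-beta, activin and myostatin axis was followed through 10 genes, of the 32285 genes counted in each of 2 single-cell libraries. The genes were chosen by name: the ligand genes Tgfb1, Tgfb2, Tgfb3, Inhba and Mstn, the inhibitor gene Fst, and the receptor genes Tgfbr1, Tgfbr2, Tgfbr3 and Acvr2b. All 10 had UMIs (unique molecular identifiers, each standing for 1 captured transcript) in both libraries.

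TGF-beta, activin and myostatin are secreted dimers that bind a type II receptor, which then phosphorylates a type I receptor, and the pair passes the signal on through SMAD2 and SMAD3. In skeletal muscle, myostatin is made by fibers and restrains their growth, activin A acts through the same type II receptors, and follistatin binds and neutralizes both. TGF-beta is held in the matrix in a latent form, keeps muscle stem cells (MuSCs) from fusing, and drives fibroblasts to lay down matrix.

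The libraries came from plantaris muscle of Pax7rtTA; TRE-H2B-GFP mice, 26 weeks old, in which doxycycline switches on a nuclear green reporter wherever the transactivator knocked into the Pax7 locus is expressed. All mice drank doxycycline at 2.0 mg/ml in sweetened water for 2 weeks and then had a washout before surgery. The sham library was made 5 days after an incision in which the plantaris tendon was probed, and the MOV library 5 days into mechanical overload by partial removal of the synergist muscles. Cells were stained to take VCAM+ cells and to leave out CD31+, CD45+ and SCA1+ cells, whereas the series text names the GFP signal as the basis of the sort. The sample labels describe a single mouse and the methods several per condition, so the number of animals behind a library was not settled here.

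With 1 library per condition, condition and library cannot be told apart, no test between conditions was made, and cells were not treated as replicates. Values are CPM, the UMIs of a gene summed over a group of cells, divided by all UMIs of the group and scaled to 1000000, and every 95% interval covers counting error only. A gene is called higher or lower in a comparison when 2 groups that together hold at least 20 of its UMIs differ by at least 2-fold. The share of all genes called in the same way is printed beside each count. Levels are compared for 1 gene across groups of cells, never between genes.

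The sham library held 1100 barcodes and 7302661 UMIs, and the MOV library 3854 barcodes and 88498487 UMIs, and 738 and 3060 of these barcodes had under 10% mitochondrial UMIs and were kept. Between the libraries, 44 barcodes were shared, and in each such pair the shallower barcode held a median of 2.11% of the UMIs of the deeper. The shallower barcode lay in the MOV library for 39 of them. These made up 18 of the 36 MOV fiber droplets and 1 of the 1545 MOV MuSCs, and no MOV myocyte or stromal cell of the groups used here.

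Cells were grouped by marker UMIs. The MuSCs numbered 118 in sham and 1545 in MOV, with median depths of 8052 and 22442 UMIs. They were split into quiescence-marker MuSCs, set by a short marker list that includes Chrdl2 (91 sham, 379 MOV), matrix-marker MuSCs with Gpc3 or Islr (2 and 128), cycling MuSCs (10 and 701) and other non-cycling MuSCs (15 and 337). Myocytes numbered 1 and 190, droplets of fiber RNA 483 and 36, stromal cells with Pdgfra and fewer than 2 Lrrc15 UMIs, here Pdgfra cells, 23 and 163, and stromal cells with at least 2 Lrrc15 UMIs, here Lrrc15 fibroblasts, 1 and 190. Markers that did not set the groups were then read. The MuSC genes Vcam1, Itga7, Des, Sdc4 and Msc summed to between 2387 and 4610 CPM in the 4 MOV MuSC states, and to 383 CPM in Pdgfra cells and 294 CPM in Lrrc15 fibroblasts. They did not set MuSCs apart from fiber droplets, at 3485 CPM in sham and 7077 CPM in MOV, or from MOV Schwann cells, at 2238 CPM. Dcn, Lum, Col1a1, Col3a1 and Pdgfrb summed to 29678 CPM in MOV Pdgfra cells and 25711 CPM in Lrrc15 fibroblasts, against 931 to 2033 CPM in the MuSC states. These genes did not set the stromal groups apart from tenocytes, at 33698 CPM in sham and 32921 CPM in MOV. MOV immune cells stood at 10443 CPM. The fiber genes Acta1, Mylpf, Tnnt3, Tnnc2 and Tnni2 summed to 177478 CPM in the sham fiber droplets, and to 10367 CPM in MOV myocytes. Ly6a, which encodes SCA1, stood at 1194 CPM over the MOV stromal cells, and the part that the sort played in which stromal cells are present was not tested.

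Among the ligands, Inhba was highest in stromal cells and Mstn in fiber droplets, so the promoters of these genes are shown side by side. The 250 bases before the RefSeq start (GRCm38.p6) are printed 5′ to 3′, for Inhba on the plus strand of chr13:16011601-16011850 and for Mstn on the plus strand of chr1:53061390-53061639. Capitals mark the letters TATAAA and the E-box letters CANNTG, the core bound by the myogenic MyoD family, searched on both strands (CANNTG reads the same on each).
Inhba: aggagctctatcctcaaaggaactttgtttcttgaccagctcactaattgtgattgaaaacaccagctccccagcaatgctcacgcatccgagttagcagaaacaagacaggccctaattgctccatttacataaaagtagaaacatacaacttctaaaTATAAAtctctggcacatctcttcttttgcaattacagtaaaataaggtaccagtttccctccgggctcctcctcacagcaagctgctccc
Mstn: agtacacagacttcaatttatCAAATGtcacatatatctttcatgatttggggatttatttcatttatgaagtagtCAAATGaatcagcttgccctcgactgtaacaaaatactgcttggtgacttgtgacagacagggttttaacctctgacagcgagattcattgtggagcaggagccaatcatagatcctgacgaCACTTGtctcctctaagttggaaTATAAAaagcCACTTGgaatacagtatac
The Mstn window held 4 E-boxes, the nearest ending 14 bases before the start, and 1 TATAAA that began 29 bases before it. The Inhba window held 1 TATAAA, which began 91 bases before the start, and no CANNTG. Not every ligand gene high in stromal cells was like Inhba in this. The window of Tgfb2, also highest in MOV Lrrc15 fibroblasts, held an E-box (CACGTG) and a TATAAA, and that of Tgfb1 held neither. Over the 32851 promoter windows of that length that were searched, 66.2% held at least 1 E-box and 12.4% at least 1 TATAAA. The matches describe the sequence, and no binding was measured.

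**Figure D1:**
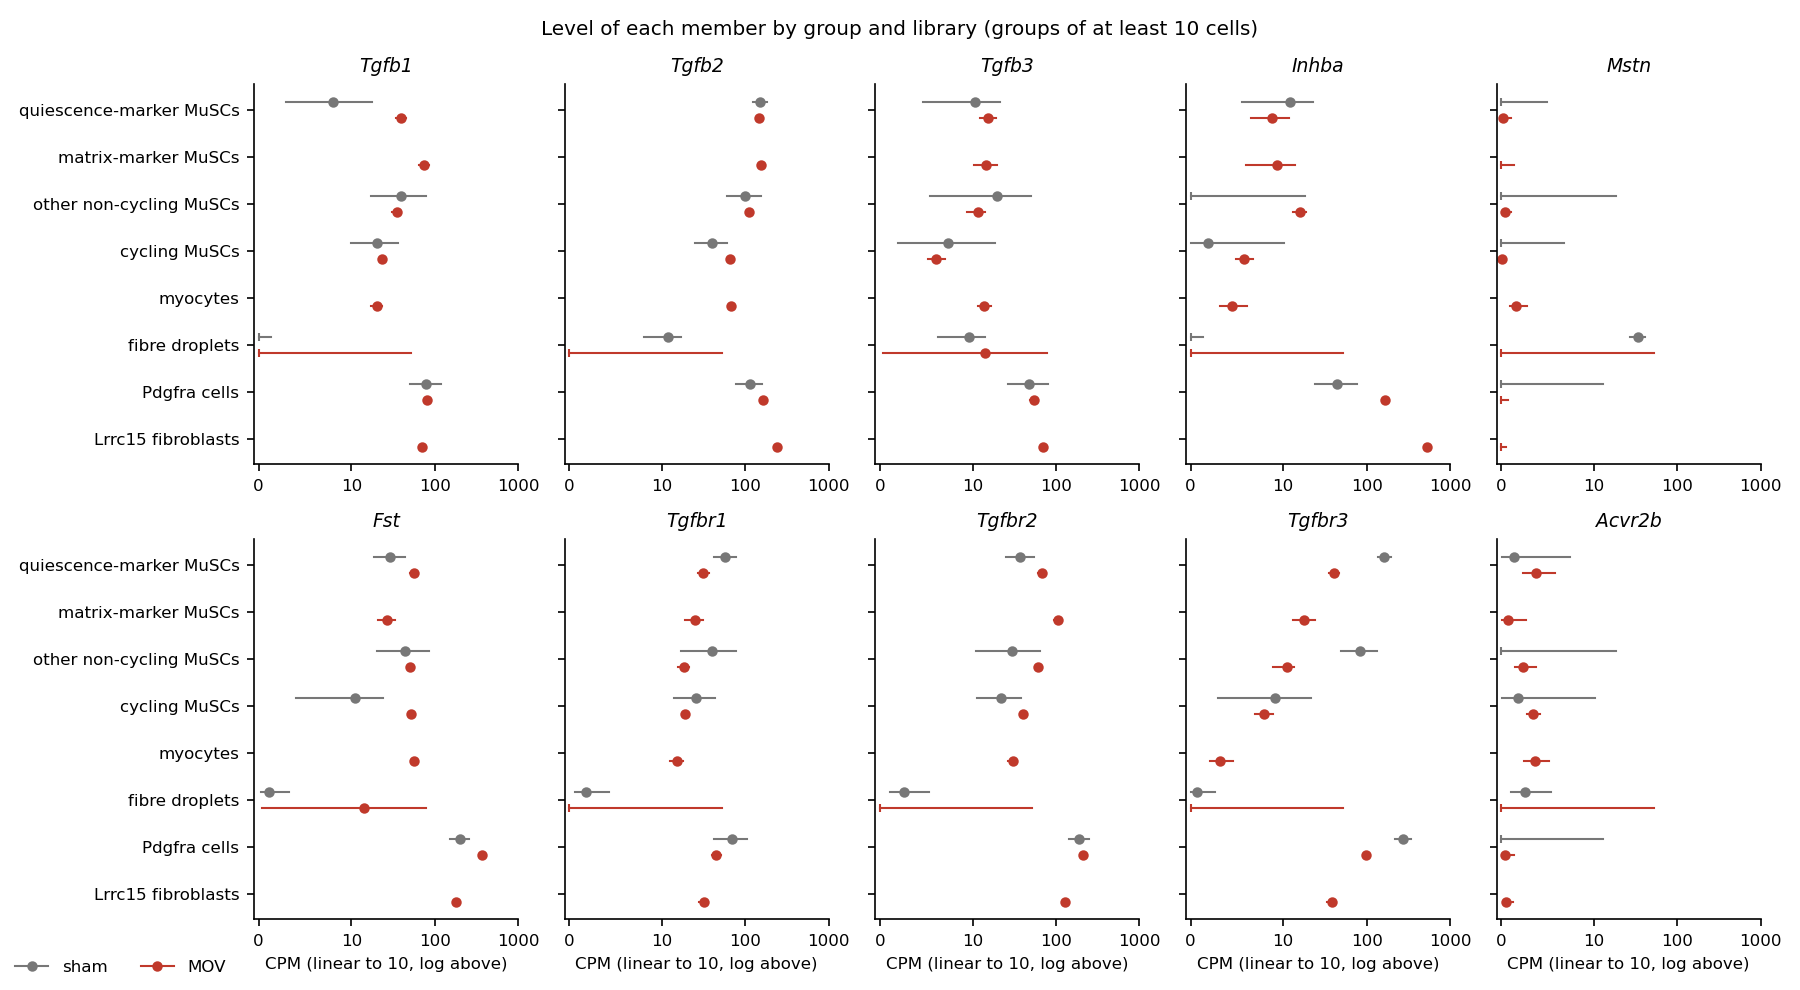
CPM of the 10 genes (x axis, linear to 10 and logarithmic above) in each group of at least 10 cells (y axis) in the sham (gray) and MOV (red) libraries. Points are levels, ticks at 0 mark groups with no UMI, and bars are 95% counting intervals. Inhba is highest in Lrrc15 fibroblasts at 526 CPM, Mstn in sham fiber droplets at 33.7 CPM, and the Tgfbr3 points of sham lie above those of MOV in every non-fiber group plotted in both.

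Inhba (chr13:16011851-16031621, GRCm38, plus strand) encodes the chain of activin A. Its level in Lrrc15 fibroblasts of the MOV library was 526 CPM (510 to 542), from 4228 UMIs in 190 cells. MOV Pdgfra cells followed at 165 CPM (155 to 176), and the 4 MuSC states and myocytes lay between 4.43 and 15.7 CPM. Stromal cells were therefore well apart from the myogenic cells, and Lrrc15 fibroblasts from Pdgfra cells, with a log2 ratio of 1.67 (1.57 to 1.78) between the stromal groups. A single Lrrc15 fibroblast held 528 of the Inhba UMIs, or 12.5%. In the sham library, Inhba stood at 44.7 CPM (23.8 to 76.4) in Pdgfra cells, at 12.1 CPM in quiescence-marker MuSCs and at 0 in fiber droplets. The level in Pdgfra cells was thus higher in MOV than in sham by a log2 ratio of 1.89 (1.10 to 2.80), although 5 of the 13 sham UMIs came from 1 cell. Of 7 non-fiber groups with at least 10 cells in each library, 6 had a higher Inhba level in MOV. The interval of the ratio excluded 0 in 3, the Pdgfra cells, tenocytes (2.17, 1.23 to 3.31) and vascular cells (3.21, 2.27 to 4.34). Among the vascular cells, 1 cell held 7 of the 9 sham UMIs and 1 held 375 of the 486 MOV UMIs. Their mean CPM of single cells was 86.2 in sham and 144 in MOV.

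Shares of cells showed the same order as the levels. After each cell had been thinned to 2000 UMIs, 38.4% of MOV Lrrc15 fibroblasts (31.5 to 45.7%, Clopper-Pearson), 15.3% of MOV Pdgfra cells and 1.63% of MOV MuSCs had an Inhba UMI, and no cell of the first pair of groups but 15 MuSCs were too shallow to enter. Without thinning, the shares were 80.0%, 47.9% and 10.1%. The Inhba level of the MOV MuSCs was 2.13% of the level over all stromal cells. The stromal genes Postn, Cthrc1, Lum, Ly6a, Pdgfra and Lrrc15 stood in the same MuSCs at 0.521 to 3.98% of their stromal level. Pdgfra and Lrrc15 took part in setting the groups, which limits their level in MuSCs. The part of stromal RNA in the Inhba UMIs of MuSCs was not tested. In the other non-cycling MuSCs, which had the highest Inhba level of the myogenic groups, 73 of the 131 UMIs came from 1 cell. Outside these groups, MOV tenocytes stood at 247 CPM, vascular cells at 377 CPM, with 375 of 486 UMIs in 1 cell, and immune cells at 147 CPM, beside a Pdgfra level of 35.6% of the stromal level in the same immune cells.

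Mstn (chr1:53061640-53068079, GRCm38, plus strand), the myostatin gene, was counted mostly in droplets of fiber RNA, which held 91 of its 111 UMIs in kept sham barcodes. These made 33.7 CPM (27.1 to 41.3), and the 118 sham MuSCs and 23 sham Pdgfra cells had none. Against a floor of 3 counts over the sham MuSCs, the level in fiber droplets was at least 17.0-fold higher. No cell dominated, the highest holding 5.49% of these UMIs. After thinning, 25 of 338 sham fiber droplets, or 7.40% (4.84 to 10.7%), had a Mstn UMI, and 0 of 117 sham MuSCs did, which allows a share of up to 3.10%. Without thinning the share of sham fiber droplets was 13.9%.

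In the MOV library, Mstn was at 1.63 CPM (0.892 to 2.74) in myocytes, from 14 UMIs, of which 10 came from 1 cell. MOV MuSCs held 5 UMIs in 46789135, and the MOV Pdgfra cells and Lrrc15 fibroblasts held 0. The 36 MOV fiber droplets also held 0, but they summed to only 71080 UMIs, and the interval of up to 51.9 CPM covers the sham level, so a difference in fiber Mstn between the conditions was not detectable at this depth. Of 87 Mstn UMIs in kept MOV barcodes, 42.5% lay in a named group, and the others in barcodes left without a group. Such barcodes had UMIs of several lineages, too few lineage UMIs, or, myocytes aside, a lineage together with fiber genes over the threshold. Among the named groups, MOV tenocytes had 18 Mstn UMIs (9.67 CPM), 11 of them in 1 cell.

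Tgfb1 (chr7:25687002-25705077, GRCm38, plus strand) encodes the most studied TGF-beta isoform. In MOV its order was Pdgfra cells at 81.4 CPM, matrix-marker MuSCs at 74.9 CPM and Lrrc15 fibroblasts at 70.7 CPM, whose neighboring intervals of the ratio held 0. Next came quiescence-marker MuSCs at 39.6 CPM and other non-cycling MuSCs at 35.1 CPM, likewise not apart. Cycling MuSCs at 23.1 CPM and myocytes at 20.2 CPM followed, also not apart from each other. In sham, Pdgfra cells were at 79.1 CPM, quiescence-marker MuSCs at 8.04 CPM from 6 UMIs, and fiber droplets had no UMI. The level in Pdgfra cells therefore lay within counting error of that in MOV (log2 ratio 0.04, -0.56 to 0.71), though 11 of the 23 sham UMIs lay in 1 cell and the ratio was 1.66 with at least 4 lineage UMIs asked of a cell, while quiescence-marker MuSCs were higher in MOV (2.30, 1.16 to 3.76). The latter call was lost at a mitochondrial limit of 5%, where the ratio was 0.75, and after thinning 3.33% of sham (0.693 to 9.43%) and 4.76% of MOV (2.85 to 7.42%) quiescence-marker MuSCs had a Tgfb1 UMI. The part of immune RNA in the MuSC values was not tested. Cd68, Lyz2, Csf1r and Cd74 together stood at 12.9 to 27.6 CPM in the 4 MOV MuSC states and at 10056 CPM in the immune cells, whose Tgfb1 level was 162 CPM.

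Tgfb2 (chr1:186622792-186705989, GRCm38, minus strand) had its highest level in MOV Lrrc15 fibroblasts, at 238 CPM (228 to 249). MOV Pdgfra cells at 163 CPM, matrix-marker MuSCs at 156 CPM and quiescence-marker MuSCs at 146 CPM followed with no step beyond counting error. Other non-cycling MuSCs were at 111 CPM, and myocytes at 67.0 CPM and cycling MuSCs at 65.3 CPM did not differ from each other. In sham, quiescence-marker MuSCs were at 150 CPM and Pdgfra cells at 113 CPM, again within counting error, and fiber droplets at 11.8 CPM. A single cell held 28 of the 112 UMIs of the sham quiescence-marker MuSCs. The quiescence-marker MuSCs of the libraries were within counting error of each other (log2 ratio -0.04, -0.33 to 0.26). That ratio depended on the settings. It was -0.88 at a mitochondrial limit of 5% and 0.32 without the cell of most UMIs in each group.

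Tgfb3 (chr12:86056745-86079041, GRCm38, minus strand) was at 69.2 CPM in MOV Lrrc15 fibroblasts and at 55.1 and 48.1 CPM in MOV and sham Pdgfra cells. A single cell held 8 of the 14 UMIs of the sham Pdgfra cells. Tenocytes stood at 65.5 CPM in MOV and at 73.2 CPM, from 12 UMIs, in sham. Vascular cells stood at 40.4 CPM in MOV and at 45.4 CPM, from 10 UMIs, in sham. Every myogenic group of at least 20 cells was at 15.3 CPM or less. Sham fiber droplets held 26 UMIs (9.62 CPM), close to the 11.9 CPM of sham MuSCs. At a mitochondrial limit of 5%, however, the log2 ratio of these droplets to the MuSCs was 1.80.

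Fst (chr13:114452290-114458951, GRCm38, minus strand) encodes follistatin. MOV Pdgfra cells had the highest level, at 370 CPM (354 to 387), and Lrrc15 fibroblasts stood at 179 CPM (170 to 189), opposite to the order of Inhba. Quiescence-marker MuSCs, myocytes, cycling MuSCs and other non-cycling MuSCs lay at 56.4, 56.4, 52.2 and 51.1 CPM without a step beyond counting error, and matrix-marker MuSCs at 26.8 CPM. The Fst level of MOV MuSCs was 19.9% of the stromal level, beside 0.521 to 3.98% for the stromal marker genes in the same cells. The part of stromal RNA in this Fst level was not tested. In sham, Pdgfra cells were at 203 CPM, with 39 of 59 UMIs in 1 cell, and quiescence-marker MuSCs at 29.5 CPM. Without the cell of most UMIs in each group, the log2 ratio of MOV to sham Pdgfra cells moved from 0.87 to 2.28, and with at least 4 lineage UMIs asked of a cell it turned to -0.25. The MOV level was above the sham level in all 7 non-fiber groups with at least 10 cells in each library, and the interval of the ratio excluded 0 in 5 of them, the quiescence-marker MuSCs, cycling MuSCs, Pdgfra cells, tenocytes and vascular cells. The 6 sham UMIs of the cycling MuSCs lay in 1 cell, and in tenocytes, vascular cells and Schwann cells the sham library had none.

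Tgfbr3 (chr5:107106570-107289629, GRCm38, minus strand) encodes betaglycan, a co-receptor that presents TGF-beta2 and also binds inhibin. In sham it stood at 275 CPM (218 to 342) in Pdgfra cells and at 164 CPM (136 to 195) in quiescence-marker MuSCs, and in MOV at 98.3 CPM and 40.5 CPM (35.4 to 46.2) in the same groups. Both groups were lower in MOV, with log2 ratios of -1.48 (-1.83 to -1.13) and -2.01 (-2.34 to -1.68). The difference was not limited to them. Of 7 non-fiber groups with at least 10 cells in each library, all 7 had a lower Tgfbr3 level in MOV, and the interval of the ratio excluded 0 in 5. Tenocytes were at 409 CPM in sham and 108 CPM in MOV, vascular cells at 77.2 and 26.4 CPM, and other non-cycling MuSCs at 84.0 CPM, from 17 UMIs, and 11.0 CPM. The exceptions were cycling MuSCs, at 9.15 CPM from 5 sham UMIs and 7.88 CPM in MOV, and Schwann cells, at 135 CPM from 8 sham UMIs and 71.8 CPM.

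Across the MOV MuSC states Tgfbr3 had a graded order. Quiescence-marker MuSCs were at 40.5 CPM, matrix-marker MuSCs at 17.9 CPM, other non-cycling MuSCs at 11.0 CPM, cycling MuSCs at 7.88 CPM and myocytes at 3.15 CPM (2.07 to 4.58). The intervals of the first pair did not overlap, and the interval of the ratio excluded 0 at each later step. After thinning, 10.8% of MOV quiescence-marker MuSCs had a Tgfbr3 UMI, against 3.91% of matrix-marker, 3.07% of other non-cycling and 2.01% of cycling MuSCs and 2.26% of myocytes, so the shares set the quiescence-marker cells apart but did not order the last groups. In sham, the share was 33.3% of quiescence-marker MuSCs and 0.296% of fiber droplets. Unthinned shares were 65.9% and 39.3% in the quiescence-marker MuSCs of sham and MOV.

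**Figure D2:**
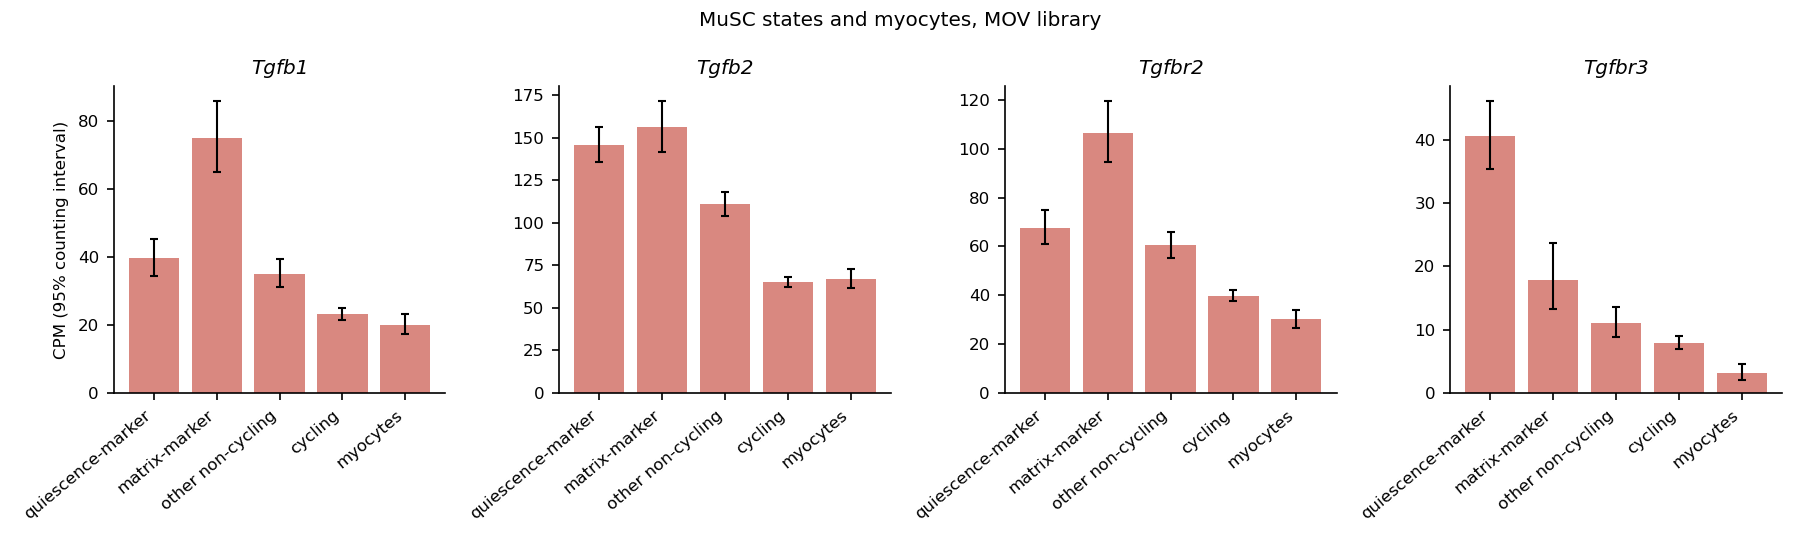
CPM (y axis, from 0, with 95% counting intervals) of Tgfb1, Tgfb2, Tgfbr2 and Tgfbr3 in the 4 MuSC states and in myocytes of the MOV library (x axis). Tgfb1 and Tgfbr2 are highest in matrix-marker MuSCs, at 74.9 and 107 CPM, and Tgfbr3 in quiescence-marker MuSCs, at 40.5 CPM.

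Tgfbr1 (chr4:47353222-47414931, GRCm38, plus strand), the type I receptor of TGF-beta, ran in the MOV stromal and myogenic cells from 44.8 CPM in Pdgfra cells to 15.0 CPM in myocytes, and of the steps between neighbors only that from Pdgfra cells to Lrrc15 fibroblasts (31.7 CPM) exceeded counting error. Sham Pdgfra cells and quiescence-marker MuSCs were at 68.8 and 57.6 CPM, not apart from each other, and sham fiber droplets at 1.85 CPM. MOV tenocytes, at 66.6 CPM, were above the MOV Pdgfra cells. Of the same 7 groups, 6 were lower in MOV, but the interval excluded 0 in 1, the quiescence-marker MuSCs (31.3 against 57.6 CPM, log2 ratio -0.88, -1.37 to -0.36).

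Tgfbr2 (chr9:116084293-116175360, GRCm38, minus strand), the type II receptor of TGF-beta, was highest in Pdgfra cells, at 213 CPM in MOV and 189 CPM in sham. Lrrc15 fibroblasts were at 129.8 CPM, and matrix-marker MuSCs at 107 CPM exceeded the quiescence-marker and other non-cycling MuSCs, at 67.7 and 60.6 CPM, which did not differ. Cycling MuSCs were at 39.7 CPM and myocytes at 30.2 CPM. Unlike Tgfbr3, it was higher in the MOV than in the sham quiescence-marker MuSCs (67.7 against 37.5 CPM, log2 ratio 0.85, 0.30 to 1.46). At a mitochondrial limit of 5% that ratio was 0.11. Tgfbr2 was lower in the tenocytes (99.4 against 159 CPM) and vascular cells (57.4 against 127 CPM) of MOV. The mean CPM of single cells was 125 in MOV and 138 in sham tenocytes, and 72.5 and 84.3 in the vascular cells. A single sham vascular cell held 11 of the 28 UMIs of its group.

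Acvr2b (chr9:119402118-119434995, GRCm38, plus strand), a type II receptor of activin and myostatin, was counted rarely, with 15 kept UMIs in sham and 207 in MOV. Its MOV level was 3.78 CPM in quiescence-marker MuSCs, 3.61 CPM in myocytes, 3.41 CPM in cycling MuSCs and 2.39 CPM in other non-cycling MuSCs, which did not differ. Pdgfra cells held 2 and Lrrc15 fibroblasts 4 UMIs, or 0.366 and 0.498 CPM. Acvr2b had the lowest ratio of Pdgfra cells to MuSCs of the members tested, and Mstn had no stromal UMI in the Pdgfra cells or Lrrc15 fibroblasts of either library.

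The comparison of MOV with sham asked how the axis stood during a growth stimulus. Over all MuSCs, 4 of 9 members tested were called, where 21.4% of all genes were, 12.1% higher and 9.29% lower. Fst was higher in MOV (51.1 against 24.4 CPM, log2 ratio 1.07, 0.60 to 1.58), and Tgfbr3 (12.9 against 96.3 CPM, -2.90, -3.16 to -2.63) and Tgfbr1 (20.7 against 43.5 CPM, -1.07, -1.43 to -0.69) were lower. The Fst call was lost with the mean CPM of single cells (0.37), with TMM (0.93) or median-of-ratios scaling (0.92), without shared barcodes (0.63) and without cycling MuSCs (0.62). After thinning, 8.55% of sham and 7.32% of MOV MuSCs had an Fst UMI. Acvr2b was called higher on 146 MOV and 2 sham UMIs, with an interval of -0.64 to 4.30 that held 0. Tgfb1, Tgfb2, Tgfb3, Inhba and Tgfbr2 lay within 2-fold, and Mstn had too few UMIs. The median log2 ratio of the members was 0.30, and that of all genes 0.09. Cycling MuSCs made up 701 of the 1545 MOV cells and 10 of the 118 sham cells, so the pooled values also carry the mix of states.

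Within the quiescence-marker MuSCs, 3 of 9 members were called, beside 27.9% of all genes (20% higher, 7.88% lower). These were Tgfbr3 (-2.01) and Tgfb1 (2.30), described above, and Acvr2b, on 21 and 1 UMIs (log2 ratio 1.50, -1.14 to 6.87). Fst at 0.94, Tgfbr1 at -0.88 and Tgfbr2 at 0.85 had intervals without 0 but lay within 2-fold, and Tgfbr2 was at 0.11 with a mitochondrial limit of 5%. In the Pdgfra cells, 2 of 8 members were called, Inhba (1.89) and Tgfbr3 (-1.48), beside 29.2% of all genes (15.3% higher, 13.8% lower). Lum, Col1a1 and the other fibroblast genes listed above summed to 520.1 CPM in sham and 1719 CPM in MOV quiescence-marker MuSCs, and the part of this RNA in the MuSC ratios was not tested.

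**Figure D3:**
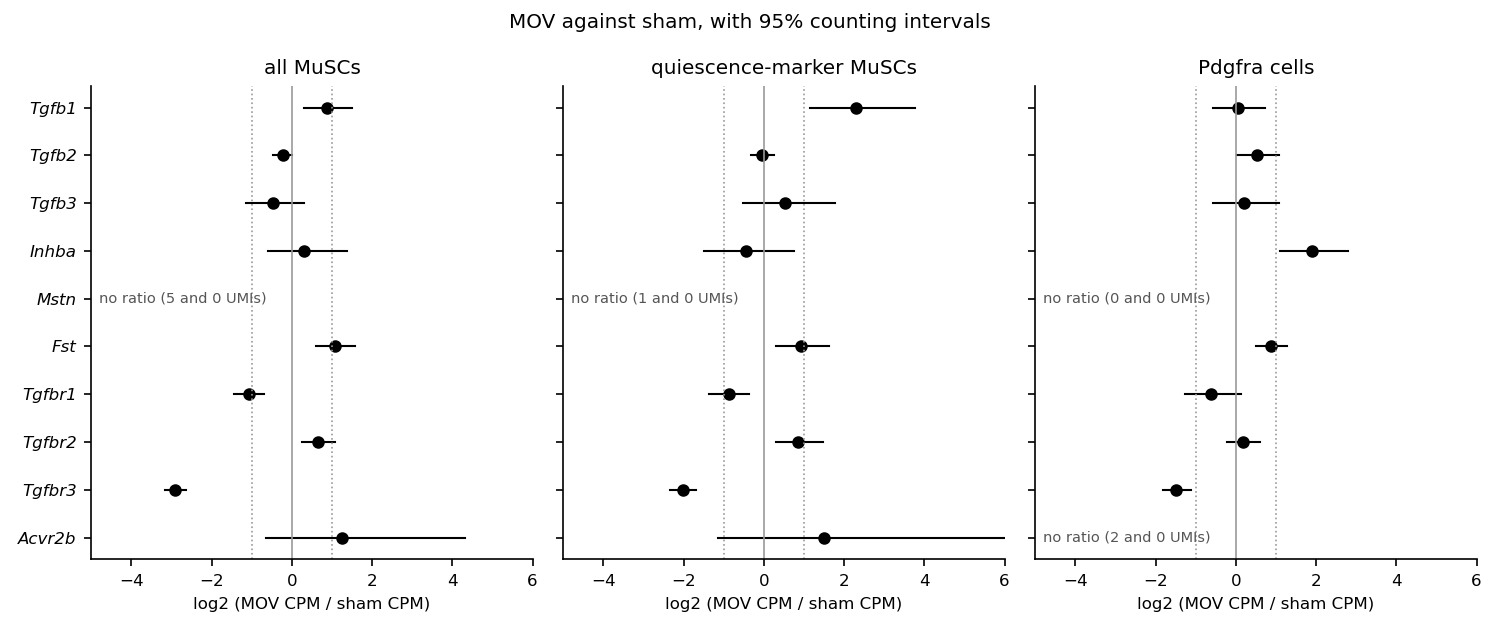
Log2 ratio of MOV to sham CPM (x axis) for the 10 genes (y axis) in all MuSCs, quiescence-marker MuSCs and Pdgfra cells, with 95% counting intervals clipped at -5 and 6. The solid line marks no difference and dotted lines 2-fold, and a note stands in place of a ratio where a library had no UMI. Tgfbr3 lies below the lower 2-fold line in each panel, at -2.90, -2.01 and -1.48. Of the groups drawn here, Inhba lies above the upper line only in Pdgfra cells, at 1.89.

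A list of 50 further genes of the pathway, picked by role but with earlier results of these data known, was counted in the same way. Over all MuSCs, 44 were tested, of which 8 were higher and 8 lower in MOV, beside 12.1% and 9.29% of all genes. The higher genes included 7 of 13 target genes, led by Fn1, fibronectin (log2 ratio 6.09, 4.23 to 9.13, from 2 sham UMIs), Postn, periostin (4.48), and Col1a1 (2.37). The lower genes were led by Ccn2, a matricellular target gene, at 126 against 708 CPM (-2.49), Ltbp4, which anchors latent TGF-beta (-2.27), and Bambi, a decoy receptor (-1.45). SMAD genes were on the lower side, with 4 of 10 called lower and none higher. The median log2 ratio was 1.16 for the target genes and -0.73 for the SMAD genes. Postn in the MOV MuSCs stood at 1.59% of its stromal level, and the part of stromal RNA in these target genes was not tested.

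In the quiescence-marker MuSCs, 11 of 39 pathway genes tested were higher and 6 lower, beside 20% and 7.88% of all genes, with a median of -0.02 against 0.23 for all genes. Postn (6.13, 3.65 to 11.44, from 1 sham UMI) and Col1a2 (5.35) were the highest of those with a ratio, and Fn1, with no sham UMI and 330 in MOV, was at least 14.8-fold higher. Bambi (-2.29), Ccn2 (-1.46) and Tgif1, a nuclear SMAD co-repressor (-1.43), were the lowest. Pdgfra cells had 12 of 41 higher and 8 lower, beside 15.3% and 13.8% of all genes, with a median of 0.10. Timp1, an inhibitor of matrix proteases, was at 5126 against 220 CPM (4.54), Acta2, smooth muscle actin, at 139 against 6.88 CPM (4.34, 2.48 to 7.39, from 2 sham UMIs), and Ltbp2 at 94.6 against 13.8 CPM (2.78). Ltbp4 (-3.54), Dcn, the proteoglycan decorin (-2.24), and Bambi (-2.23) were lower. Ltbp4 and Bambi were thus below their sham level by more than 2-fold both in the Pdgfra cells and in the pooled MuSCs.

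Differences among MuSC states were read within the MOV library, whose states had median depths of 13592 to 35629 UMIs. Cycling against quiescence-marker MuSCs had 3 of 9 members called, beside 23.2% of all genes (14.1% higher, 9.09% lower), and all 3 were lower in cycling cells. These were Tgfb2 (65.3 against 146 CPM, log2 ratio -1.16, -1.28 to -1.04), Tgfb3 (6.06 against 15.3 CPM, -1.34) and Tgfbr3 (-2.36, -2.63 to -2.09). Tgfb1, Inhba, Tgfbr1 and Tgfbr2 were lower by less than 2-fold with intervals that excluded 0, and Fst was not apart (-0.11, -0.29 to 0.07). Of the pathway list, 13 of 43 genes tested were lower and 3 higher, with a median of -0.54 against 0.07 for all genes. Ccn2 (-2.55), Tagln, a contractile target gene (-2.52), and Fstl3, a relative of follistatin (-2.29), were lowest, and Gdf15, a stress-induced member of the family (3.55), Lrrc32, which docks latent TGF-beta (1.46, -0.52 to 4.57, from 2 UMIs in quiescence-marker MuSCs), and Gdf11, the closest relative of myostatin (1.01), highest.

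Matrix-marker against other non-cycling MuSCs gave 2 of 9 members called, beside 8.71% of all genes (4.24% higher, 4.47% lower). Tgfb1 was higher in the matrix-marker cells (log2 ratio 1.10, 0.83 to 1.36), and Acvr2b lower on 2 and 20 UMIs (-1.68, -4.82 to 0.36). Tgfbr2 at 0.82 (0.60 to 1.03) and Fst at -0.93 (-1.31 to -0.57) stayed within 2-fold. Of 42 pathway genes tested, 3 were higher, Fn1 (1.78), Fstl3 (1.62) and Tgfbi, a TGF-beta induced matrix gene (1.22), and 1 was lower, Gdf15 (-1.46). Ccn2 (-0.98) and Bambi (-0.82) followed within 2-fold. Pdgfra itself stood at 4.95% of its stromal level in the matrix-marker cells and at 0.94% in the other non-cycling cells. Tgfb1 stood at 99.9% and 46.8% of its own stromal level in the same groups. Pdgfra took part in setting the groups, and the part of stromal RNA in these values was not tested.

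In myocytes against all MuSCs, 1 of 9 members was called, beside 20.2% of all genes (7.64% higher, 12.5% lower). This was Tgfbr3, at 3.15 against 12.9 CPM (log2 ratio -2.03, -2.65 to -1.48). Mstn had 14 and 5 UMIs, under the 20 needed for a call (3.93, 2.38 to 5.76). Of the pathway list, 19 of 45 genes tested were lower and 4 higher, with a median of -0.64 against -0.12 for all genes. The highest were Inha, the inhibin chain (3.12, from 16 and 10 UMIs), Itgb6, an integrin chain that activates latent TGF-beta (2.76), and Cdkn1a, the cell cycle inhibitor p21 (1.55). The lowest were Itgb8 (-2.33), Lrrc32 (-2.08, -5.17 to -0.14, from 2 myocyte UMIs) and Bambi (-1.94).

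The stromal comparison set MOV Pdgfra cells against MOV MuSCs. Of 9 members tested, 7 were higher in Pdgfra cells and 1 lower, where 34.2% of all genes were called, 18.1% higher and 16.1% lower. The higher members were Inhba (log2 ratio 4.35, 4.18 to 4.53), Tgfbr3 (2.93), Fst (2.86), Tgfb3 (2.67), Tgfbr2 (2.07), Tgfb1 (1.43) and Tgfbr1 (1.11). Tgfb2 was within 2-fold (0.89), and Acvr2b was lower (-3.09, -6.15 to -1.21, from 2 UMIs in Pdgfra cells). The median of the members was 2.07 and that of all genes -0.12. From the pathway list, 20 of 44 genes tested were higher, led by Postn (5.75), Lrrc32 (5.71) and Fn1 (5.10), and 5 lower, led by Itgb6 (-2.48), Inhbb, the chain of activin B (-2.39), and Acta2 (-2.32).

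Lrrc15 fibroblasts were set against Pdgfra cells in the MOV library because LRRC15 marks matrix-producing fibroblasts. Here 3 of 8 members were called, beside 9.95% of all genes (3.43% higher, 6.52% lower). Inhba was higher in Lrrc15 fibroblasts (526 against 165 CPM, log2 ratio 1.67), and Fst (179 against 370 CPM, -1.05, -1.15 to -0.95) and Tgfbr3 (38.1 against 98.3 CPM, -1.37, -1.57 to -1.16) were lower. Tgfb2 (0.55) and Tgfb3 (0.33) were slightly higher and Tgfbr2 (-0.71), Tgfbr1 (-0.50) and Tgfb1 (-0.20) slightly lower, each with an interval that excluded 0. From the pathway list, 5 of 42 genes tested were higher and 8 lower, with a median of -0.28 against -0.04 for all genes. Acta2 (1887 against 139 CPM, 3.76), Tagln (2.92) and Tgfbi (1.78), all target genes, were highest, and Gdf15 (-3.94), Itgb8 (-1.90) and Ltbp4 (-1.72) lowest.

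The same stromal cells were also ranked by Lrrc15, which restates this comparison in finer steps and adds no independent support. The 116 MOV stromal cells with no Lrrc15 UMI were set beside 3 groups of 79 cells with low, middle and high Lrrc15 per UMI. Inhba was at 129, 255, 442 and 792 CPM in this order, and at 113, 226, 381 and 616 CPM without the cell of most UMIs in each group. Fst was at 361, 291, 185 and 166 CPM and Tgfbr3 at 103, 73.8, 40.3 and 22.2 CPM. Tgfb2 was at 165, 157, 226 and 303 CPM, so that its lower pair of groups did not follow the ranking. Median depth was between 29562 and 44822 UMIs and highest in the middle group, and these cells all came from 1 library. Pdgfra, which took part in choosing the cells, was at 244, 151, 59.1 and 32.2 CPM.

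**Figure D4:**
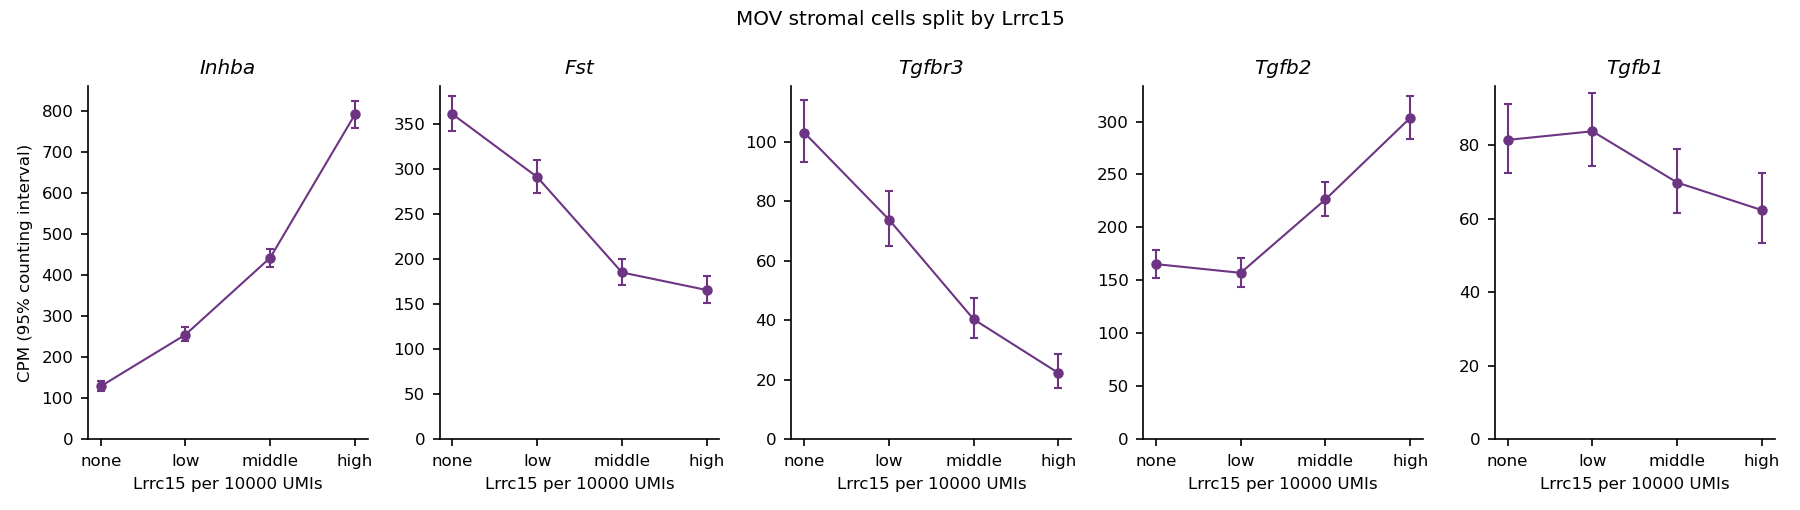
CPM (y axis, from 0, with 95% counting intervals) of Inhba, Fst, Tgfbr3, Tgfb2 and Tgfb1 in MOV stromal cells with no Lrrc15 UMI (116 cells) and with low, middle and high Lrrc15 (79 cells each, x axis). Inhba goes from 129 to 792 CPM, while Fst goes from 361 to 166 CPM and Tgfbr3 from 103 to 22.2 CPM.

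Fiber droplets against MuSCs of the sham library were called in 73.3% of all genes (21.1% higher, 52.2% lower), with a median log2 ratio of all genes of -1.14. Scaling by TMM or by the median of ratios moved every log2 ratio here up by 0.92 or 1.00. Of 8 members tested, Mstn was higher and 6 were lower. Tgfbr3 was the lowest on 2 fiber UMIs (-7.02, -10.08 to -5.14), followed by Tgfbr1 (-4.56), Fst (-4.46, -6.80 to -2.80, from 3 UMIs), Tgfbr2 (-3.64) and Tgfb2 (-3.13). Tgfb1, with no fiber UMI, was at least 14.9-fold lower. Tgfb3 was within 2-fold at the reported settings (-0.30, -1.23 to 0.65). Its direction turned under both of those scalings, to 0.61 and 0.70. At a mitochondrial limit of 5% it turned to 1.80, past 2-fold. From the pathway list, 32 of 34 genes tested were lower, down to Bgn (-9.58, -14.89 to -7.10, from 1 fiber UMI), Ccn2 (-8.58) and Ltbp1 (-8.29, -13.60 to -5.79, from 1), and 1 was higher, Itgb6 (1.58, 0.30 to 3.13). Gdf11 (-0.42, -1.79 to 1.01), within 2-fold and turned by the same scalings, and Smad4 (-1.08) were next from the top. The median of the list was -4.70.

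Genes whose pattern was most like that of each member were sought over 16 profiles of a group in a library, among 12678 genes, by the Pearson correlation of log2(CPM + 10). The profiles share 2 libraries and differ in depth, so the coefficients describe likeness only. Inhba was most like Phactr1 (r = 0.92), C1qtnf2 (0.92) and Ostf1 (0.91), and Fst most like Glipr2 (0.93), Has2 (0.90) and L3hypdh (0.89). For Mstn these were Asb16 (0.92), Riiad1 and A830052D11Rik, and for Tgfbr3 Aff1 (0.94), Tsc22d2 and Il11ra1. The other members led to Arf3, Mfsd14b and Glmp (Tgfb1), Golt1b, Hdlbp and Vmp1 (Tgfb2), Scarf2, Papss2 and Bace2 (Tgfb3), Socs1, Slc5a3 and Zfp36l1 (Tgfbr1), Pign, S100a13 and Aak1 (Tgfbr2), and Sorbs2, Cd151 and Txnrd3 (Acvr2b), with coefficients of 0.85 to 0.98.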

How the data were processed

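Single-cell RNA was counted in 1 sham and 1 MOV library. The authors aligned reads with Cell Ranger 6.0.0 to mm10, per the submitters' processing notes, and deposited filtered matrices of raw UMI counts, with no normalization. The members and gene lists were chosen with earlier results of these data known.

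Barcodes with at least 10% mitochondrial UMIs were removed. A cell took the lineage holding at least 2 UMIs and 75% of all lineage-marker UMIs, and fiber droplets needed 10 fiber UMIs making up 0.5% of the total. The marker list of the quiescence-marker MuSCs is not reported here in full. Doublets were kept in the reported values, and an alternative left out 4 sham and 75 MOV cells. Counts were summed per group and library and divided by the total (CPM). Exact Poisson, conditional binomial and Clopper-Pearson intervals had a level of 95%. Genes with at least 20 UMIs in a pair of groups were compared, 2-fold was called, and a floor of 3 counts stood for 0. Shares were taken after thinning each cell to 2000 UMIs.

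All 10 members are named. From the pathway list, the 3 highest and 3 lowest genes tested per comparison are named, and for likeness the 3 genes of highest Pearson correlation over groups of at least 20 cells. Python 3.11.15, numpy 2.4.6, scipy 1.17.1, pandas 2.3.3, scikit-learn 1.9.0 and R 4.3.3 were used, and for scaling factors alone TMM from edgeR 4.0.16 and the median of ratios from DESeq2 1.42.0. The intervals were checked on simulated data. RefSeq promoter windows matched 7 of the 10 members.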

Additional observations from a re-analysis of the deposited data

How the results depend on the processing

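The 9 comparisons were recomputed under 19 alternatives, of which 4 (both treatments of shared barcodes, cycling MuSCs left out of the pool, and stromal cells without Tnmd) were chosen after seeing the data. Of 160 counts of members called, 149 stayed within 1.5 times the reported count and 11 moved. For MOV against sham Pdgfra cells, leaving out the cell with most UMIs of each gene gave 4 members. For myocytes against MuSCs, 2 members were called with a mitochondrial limit of 20%, with no limit, with doubled group thresholds, with the mean CPM of single cells and without the top cell, and 4 with cycling MuSCs left out of the pool. For matrix-marker against other non-cycling MuSCs, a lineage purity of 90% gave 4, doubled thresholds gave 1 and a minimum of 100 UMIs gave 1. For fiber droplets against MuSCs, a minimum of 100 UMIs gave 2. That minimum leaves fewer genes tested, and for the other settings the cause was not tested.

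Of 33 member values past 2-fold, 31 kept their direction under every alternative run and 22 also stayed past 2-fold. The exceptions in direction were Acvr2b in all MuSCs and in quiescence-marker MuSCs, which rest on 2 and 1 sham UMIs. Tgfbr3 in MOV against sham ranged from -3.42 to -2.49 in all MuSCs, -2.24 to -1.69 in quiescence-marker MuSCs and -1.65 to -1.24 in Pdgfra cells. Inhba in Pdgfra cells ranged from 1.21 to 2.38, Fst in all MuSCs from 0.37 to 1.32, and Tgfb1 in quiescence-marker MuSCs from 0.75, at a mitochondrial limit of 5%, to 2.58. Depth limits the sham values, since the sham MuSCs held 1516543 UMIs and the MOV MuSCs 46789135. No paired analysis was possible because each condition had 1 library.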
